A study of Bos taurus with 38 samples.

Results

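The genes described here encode collagens, laminin, fibrillin, thrombospondins, matrix-cleaving proteases and integrins in the Longissimus dorsi (LD) muscle of newborn calves. They were picked by the start of their symbol (COL and a digit, LAMA, LAMB, LAMC, ITGA, ITGB, ADAM, MMP, TIMP, THBS, FBN, FBLN, LOX, EMILIN or SPARC) in the study's supplementary gene tables, which pair Ensembl IDs with symbols. Of 2880 gene IDs paired in those tables, 45 had such a symbol, and 39 of these reached a mean of 1 CPM (counts scaled to the total of each library) over the calves. The count table holds 27607 genes. Just above that limit lay LOX at 1.21, ADAM20 at 1.19 and ADAMTS16 at 1.11 CPM, and just below it FBN3 at 0.839, MMP25 at 0.735 and ITGA2 at 0.625 CPM. COL28A1, ADAM23 and ADAM12 were also left out, at 0.592, 0.540 and 0.378 CPM. Those tables list genes that the study called in its comparisons of Se-supplemented calves with controls. Differences between treatment groups therefore helped to choose these genes, and they are given below as descriptions without a test. Sex, dam age and the covariation between genes within groups were not criteria of the choice and were tested. A calf far from its group can shift both a group difference and such a covariation, however. The covariation is therefore not wholly free of the choice. Between calves of a group, the median SD on the log2 scale was 0.60 over the 39 genes and 0.37 over the 12964 genes tested.

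Cattle muscle was biopsied within days of birth, and RNA-Seq was done on 38 calves of Angus and Angus-cross cows. Control (CTR) dams received no boluses, whereas the other dams received Se-yeast boluses with 105 mg of Se per week in a single trimester of pregnancy, the earliest in TR1, the middle one in TR2 and the last in TR3. Cows of all groups, CTR included, shared the same feeding and had a mineral mix with Na selenite. There were 10 CTR calves (4 females, dams of 6 to 9 years), 9 TR1 calves (2 females, dams of 5 to 9 years), 10 TR2 calves (3 females, dams of 5 to 9 years) and 9 TR3 calves (5 females, dams of 5 to 8 years), each a separate animal. The sexes are those of the sample labels, whereas the text of the study gives another split for CTR. The calves came from artificial insemination to a single sire or, where that failed, from several bulls.

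Muscle fibers are wrapped in connective tissue. Fibroblasts secrete the fibrillar collagens of type I and type III, whose procollagens are trimmed by proteases, assembled into fibrils and cross-linked by lysyl oxidase. Each fiber and capillary also lies on a basement membrane of type IV collagen and laminin, to which cells attach through integrins and other receptors. In a growing fetus and newborn this scaffold is being built while proteases of the MMP and ADAMTS families remodel it. No gene or protein sequence of cattle was in the reference used here, so that none is printed.

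Total counts ranged from 12921223 to 17471666 per calf, so that 1 CPM stood for 12.9 to 17.5 reads. All 13 muscle fiber markers and all 7 fibroblast markers (PDGFRA, PDGFRL, LUM, DPT, THY1, PI16 and MFAP5) had counts in every calf, as did those of endothelium, smooth muscle, satellite cells and Schwann cells, whereas CD14, LYZ and CD8A (immune cells), ADIPOQ (adipocytes) and ALAS2 (blood) were at 0 in some calves. A single library stood apart before any comparison. The CPM values and ranks in the rest of this paragraph are TMM-scaled, so that the scaling factor of a library is part of them. In TR1 calf A2052 (replicate 5) the summed level of the fiber markers was 42137 CPM against 78439 to 191698 CPM in the other 37 calves, its TMM scaling factor was 1.35 against 0.887 to 1.16, and its fibroblast markers summed to 37.2 CPM, the lowest of all. It was the lowest of the 38 calves in 13 of the 39 genes, and its own share over all genes was not computed. NAMPT, the rate-limiting enzyme of NAD salvage, was at 628 CPM in A2052, at 619 in A2023, 635 in A2099 and 289 in A2100, which are TR2 calves, and between 47.7 and 130 CPM in the other 34 calves. One of these 4 calves was the lowest of the 38 in 28 of the 39 genes (71.8%) and in 35.3% of the 12964 genes tested. Such calves can shift the group differences that helped to choose the 39 genes, so that these shares are only a description. The differences below between Se and control calves depend on these libraries in many genes, and values without them follow. The part of NAMPT level and of fiber content in those results was not tested.

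Levels from here on are TMM-scaled CPM as well. COL1A1 and COL1A2 encode the α chains of type I collagen, the main protein of tendon-like connective tissue. In CTR calves COL1A1 ranged from 93.5 to 244 CPM with a median of 117. It ranged from 39.4 to 457 CPM in TR1 (median 120), from 47.3 to 121 CPM in TR2 (median 96.1) and from 62.8 to 213 CPM in TR3 (median 107). The groups overlapped, and both the highest and the lowest calf of the series, A2047 (replicate 4) and A2052, were TR1 calves. The 4 lowest calves were A2052, A2100, A2099 and A2023, up to 55.9 CPM, followed by a TR3 calf at 62.8 CPM. COL1A2 ranged from 106 to 272 CPM in CTR (median 145), from 43.4 to 458 CPM in TR1 (median 139), from 58.5 to 148 CPM in TR2 (median 120) and from 82.8 to 248 CPM in TR3 (median 131). COL3A1, which encodes type III collagen, ranged from 201 to 563 CPM in CTR (median 318), from 123 to 439 CPM in TR1 (median 297), from 147 to 310 CPM in TR2 (median 252) and from 199 to 518 CPM in TR3 (median 321). Every TR2 calf lay below the CTR median in COL3A1, 9 of 10 did so in COL1A2 and 8 of 10 in COL1A1. In bulk muscle, fewer cells of a type and less RNA per cell cannot be told apart.

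**Figure D1:**
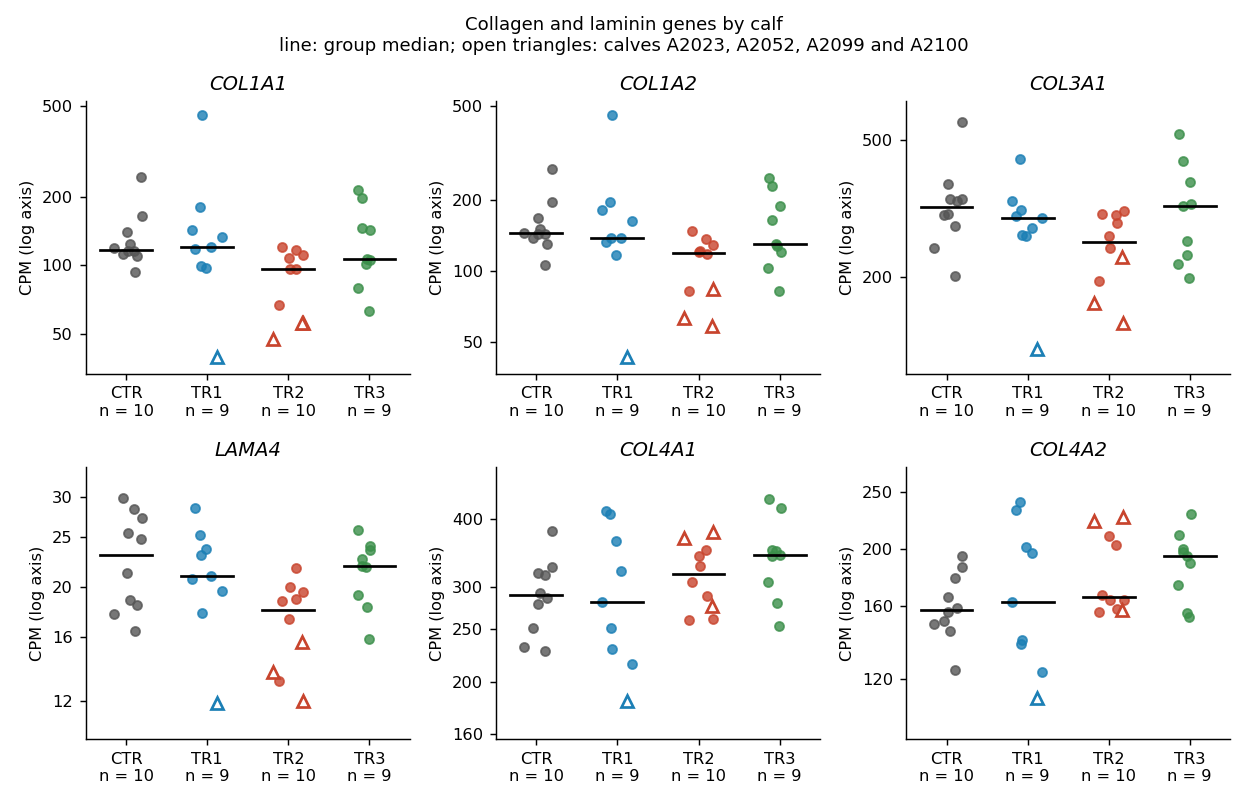
Level of 6 collagen and laminin genes in each calf (CPM, log axis) by treatment group, with a line at the group median and open triangles for calves A2023, A2052, A2099 and A2100. TR2 calves reach no higher than 121 CPM in COL1A1 and 21.8 CPM in LAMA4, while the TR2 medians of COL4A1 and COL4A2 lie above those of CTR.

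For each gene, edgeR was fitted to all 38 calves with dam age, sex and group, and the fitted log2 difference from CTR is given with its standard error (SE). In TR2 the difference was -0.60 (SE 0.26) for COL1A1, -0.57 (SE 0.24) for COL1A2 and -0.43 (SE 0.19) for COL3A1. Without calves A2023, A2099 and A2100 these values were -0.41, -0.39 and -0.26. In TR1 they were 0.16 (SE 0.27), 0.11 (SE 0.25) and -0.16 (SE 0.20), and without A2047 alone COL1A1 and COL1A2 were at -0.16 each. In TR3 they were -0.25 (SE 0.28), -0.19 (SE 0.26) and 0.03 (SE 0.21), and COL1A1 was at -0.06 without A2047. COL27A1, a minor fibrillar collagen at 4.12 ± 1.65 CPM (SD, n = 38 as for all levels in this form), was at -0.68 (SE 0.26) in TR2, where 10 of 10 calves lay below the CTR median, and at -0.40 without the 3 calves. COL11A2, a chain of the cartilage-type fibrillar collagen XI, ran the other way. It ranged from 1.36 to 16.9 CPM in CTR (median 4.26), from 1.16 to 39.8 CPM in TR1 (median 4.44), from 0.489 to 25.2 CPM in TR2 (median 6.32) and from 2.26 to 13.1 CPM in TR3 (median 9.64). Its log2 difference of 0.93 (SE 0.63) in TR1 was the highest of the 39 genes in that group, with 5 of 9 calves above the CTR median, and was 0.48 without TR1 replicate 6 alone.

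Of the fibril-associated collagens, which sit on the surface of type I fibrils, COL14A1 (9.41 ± 3.03 CPM) was at -0.44 (SE 0.22) in TR2 with 9 of 10 calves below the CTR median, and at -0.17 without the 3 calves. COL12A1 (4.90 ± 3.86 CPM) was at 0.57 (SE 0.33) in TR1. That value was 0.08 without A2047 and A2052, and A2047 alone held 25.5 CPM.

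The basement membrane chains COL4A1 and COL4A2 showed the smallest spread of the 39 genes between calves of a group, with SDs of 0.28 and 0.26 on the log2 scale. COL4A1 ranged from 228 to 380 CPM in CTR (median 289), from 184 to 413 CPM in TR1 (median 281), from 260 to 378 CPM in TR2 (median 317) and from 253 to 434 CPM in TR3 (median 343). COL4A2 ranged from 124 to 194 CPM in CTR (median 157), from 111 to 240 CPM in TR1 (median 163), from 156 to 226 CPM in TR2 (median 165) and from 153 to 229 CPM in TR3 (median 194). The groups overlapped in both genes, and in each the CTR median was exceeded by 7 of 9 TR3 calves. The log2 difference of TR3 from CTR was 0.28 (SE 0.14) for COL4A1 and 0.27 (SE 0.13) for COL4A2, and that of TR2 was 0.10 (SE 0.13) and 0.16 (SE 0.12). The other type IV chains measured, COL4A3 (3.19 ± 2.02 CPM) and COL4A4 (3.03 ± 1.74 CPM), were at -0.43 (SE 0.41) and -0.49 (SE 0.37) in TR2, and at -0.26 and -0.21 without the 3 calves. Without CTR replicate 1 alone they were -0.17 and -0.26. A2023 was the lowest calf in both, at 0.316 CPM each.

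Type VIII collagen forms short networks around vessels. COL8A1 ranged from 1.29 to 7.76 CPM in CTR (median 2.30), from 0.893 to 5.69 CPM in TR1 (median 2.50), from 0.158 to 3.57 CPM in TR2 (median 1.75) and from 1.38 to 3.89 CPM in TR3 (median 1.98). Its TR2 difference of -0.69 (SE 0.36) was -0.37 without the 3 calves and also -0.37 without CTR replicate 7 alone, and 6 of 10 TR2 calves lay below the CTR median. COL8A2 (22.6 ± 14.9 CPM) was at -0.47 (SE 0.51) in TR2 with 9 of 10 calves below it, and lay between -0.79 and -0.28 with 1 calf left out. COL6A6, a chain of the microfibrillar type VI collagen that anchors the basement membrane of muscle, ranged from 0.788 to 4.54 CPM in CTR (median 1.96), from 0.105 to 2.87 CPM in TR1 (median 1.28), from 0.183 to 2.81 CPM in TR2 (median 0.742) and from 0.137 to 3.12 CPM in TR3 (median 1.69). The TR2 difference of COL6A6, -1.03 (SE 0.44), was the lowest of the 39 genes in any group and was -0.61 without the 3 calves. In TR1 COL6A6 was at -0.43 (SE 0.45), and at -0.19 without A2047 and A2052. COL7A1, the anchoring-fibril collagen, ranged from 0.630 to 2.44 CPM in CTR (median 1.92), from 0.786 to 4.55 CPM in TR1 (median 2.57), from 1.25 to 4.50 CPM in TR2 (median 1.77) and from 1.42 to 5.32 CPM in TR3 (median 2.12), and was at 0.43 (SE 0.30) in TR1 and 0.33 (SE 0.31) in TR3. These values were 0.11 without A2047 and A2052 and 0.03 without TR3 replicate 3, respectively. The transmembrane collagen COL23A1 ranged from 0.502 to 6.63 CPM in CTR (median 1.42), from 1.41 to 6.79 CPM in TR1 (median 2.24), from 1.04 to 5.91 CPM in TR2 (median 1.71) and from 0.734 to 2.44 CPM in TR3 (median 1.47). Its TR3 difference was -0.67 (SE 0.44) although the CTR median was exceeded by 5 of 9 calves of that group, and was -0.40 without CTR replicate 1 alone.

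Among the glycoproteins, LAMA4, the laminin chain of capillary basement membranes, ranged from 16.4 to 29.9 CPM in CTR (median 23.1), from 11.9 to 28.6 CPM in TR1 (median 21.1), from 12.0 to 21.8 CPM in TR2 (median 18.1) and from 15.9 to 25.8 CPM in TR3 (median 22.0). All 10 TR2 calves lay below the CTR median of LAMA4, and the log2 difference of -0.43 (SE 0.13) was -0.30 without the 3 calves. FBN1, the fibrillin of elastic microfibrils (32.5 ± 8.16 CPM), also had 10 of 10 TR2 calves below the CTR median, at -0.36 (SE 0.16), or -0.22 without the 3 calves. The microfibril-binding FBLN1 (9.06 ± 4.05 CPM) and the thrombospondin THBS3 (1.89 ± 0.821 CPM) were at -0.54 (SE 0.23) and -0.55 (SE 0.28) in TR2. Without the 3 calves they changed little, to -0.51 and -0.58. THBS1, a secreted thrombospondin that binds matrix and cell surfaces, ranged from 4.70 to 8.58 CPM in CTR (median 5.91), from 4.54 to 65.1 CPM in TR1 (median 6.92), from 4.31 to 21.6 CPM in TR2 (median 6.47) and from 3.08 to 9.61 CPM in TR3 (median 5.07). The highest THBS1 levels of TR1 and TR2 came from A2052 and A2023. Its differences of 0.73 (SE 0.36) in TR1 and 0.58 (SE 0.34) in TR2 were -0.13 without A2047 and A2052 and 0.07 without A2023, A2099 and A2100, respectively. In TR3 THBS1 was at -0.54 (SE 0.37), and at -0.22 without A2047 and A2052.

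LOX, the lysyl oxidase that cross-links collagen and elastin, ranged from 0.158 to 1.83 CPM in CTR (median 1.01), from 0.367 to 3.46 CPM in TR1 (median 1.65), from 0.624 to 1.75 CPM in TR2 (median 1.14) and from 0.307 to 1.89 CPM in TR3 (median 1.05). Of the 9 TR1 calves 7 lay above the CTR median, with A2047 the highest. The TR1 difference of LOX was 0.77 (SE 0.36), and 0.29 without A2047 and A2052.

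The 13 proteases and their relatives were divided. ADAMTS2, which removes the amino-terminal propeptide of fibrillar procollagens (9.35 ± 2.76 CPM), was at -0.38 (SE 0.18) in TR2, and at -0.21 without the 3 calves. The proteoglycan-cleaving ADAMTS4 ranged from 0.215 to 2.13 CPM in CTR (median 1.06), from 0.926 to 1.93 CPM in TR1 (median 1.27), from 0.721 to 2.29 CPM in TR2 (median 1.43) and from 0.349 to 3.05 CPM in TR3 (median 1.30). ADAMTS4 had the highest difference of the 39 genes in both TR2, 0.66 (SE 0.30), and TR3, 0.52 (SE 0.33), and was at 0.45 (SE 0.32) in TR1. It was at 0.71 in TR1 without A2047 and A2052, and at 0.33 in TR3 without TR3 replicate 8. The membrane protease MMP14 ranged from 7.50 to 12.6 CPM in CTR (median 9.12), from 8.86 to 17.9 CPM in TR1 (median 12.1), from 7.44 to 13.8 CPM in TR2 (median 10.7) and from 9.63 to 13.8 CPM in TR3 (median 10.7). The CTR median of MMP14 was exceeded by all 9 TR3 calves, 8 of 10 TR2 calves and 7 of 9 TR1 calves, and the differences were 0.20 (SE 0.14), 0.18 (SE 0.13) and 0.30 (SE 0.14), the last of them 0.17 without A2047 and A2052. ADAMTSL4, a relative without a protease domain that binds microfibrils, ranged from 8.02 to 34.7 CPM in CTR (median 14.7), from 9.86 to 52.5 CPM in TR1 (median 26.8), from 11.3 to 56.5 CPM in TR2 (median 17.1) and from 5.30 to 61.3 CPM in TR3 (median 18.8). ADAMTSL2, its relative (3.40 ± 1.28 CPM), had 9 of 9 TR3 calves and 8 of 9 TR1 calves above the CTR median. The membrane-anchored ADAM20 ranged from 0.757 to 2.25 CPM in CTR (median 1.42), from 0.204 to 1.98 CPM in TR1 (median 0.856), from 0.144 to 2.54 CPM in TR2 (median 0.789) and from 0.801 to 2.26 CPM in TR3 (median 1.76). Its TR1 difference of -0.74 (SE 0.37), with 8 of 9 calves below the CTR median, was the lowest in TR1 and was -0.38 without A2047 and A2052. ADAM33 (6.72 ± 2.88 CPM) was at -0.53 (SE 0.26) and ADAMTS9 (10.9 ± 3.49 CPM) at -0.43 (SE 0.20) in TR2. Without the 3 calves they were at -0.23 and -0.26, and ADAM33 was at -0.81 without TR2 replicate 8 alone. The remaining proteases, ADAM9 (17.6 ± 5.79 CPM), ADAMTS8 (22.3 ± 19.3 CPM), ADAMTS16 (1.12 ± 0.610 CPM), ADAMTS20 (35.1 ± 11.3 CPM) and MMP15 (20.0 ± 5.96 CPM), lay within -0.43 and 0.25 in TR2. ADAMTS8 had the widest spread of the 39 genes between calves of a group, an SD of 1.90 on the log2 scale.

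ITGB6, the integrin β chain that pairs with αv and releases latent TGF-β (51.8 ± 19.4 CPM), was at -0.53 (SE 0.26) in TR2, with 8 of 10 calves below the CTR median, and at -0.24 without A2023, A2099 and A2100. ITGB4, the β chain of hemidesmosomes (6.36 ± 2.23 CPM), was at -0.35 (SE 0.22), and at -0.21 without them. ITGB1BP2, the muscle protein melusin that binds an integrin tail (31.7 ± 9.93 CPM), was at -0.32 (SE 0.23), and at -0.02 without them. The collagen receptor chain ITGA10 (1.67 ± 0.790 CPM) was at 0.65 (SE 0.29) in TR1, with 7 of 9 calves above the CTR median, and at 0.16 (SE 0.28) in TR2. Without TR1 replicate 2 alone its TR1 value was 0.35.

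**Figure D2:**
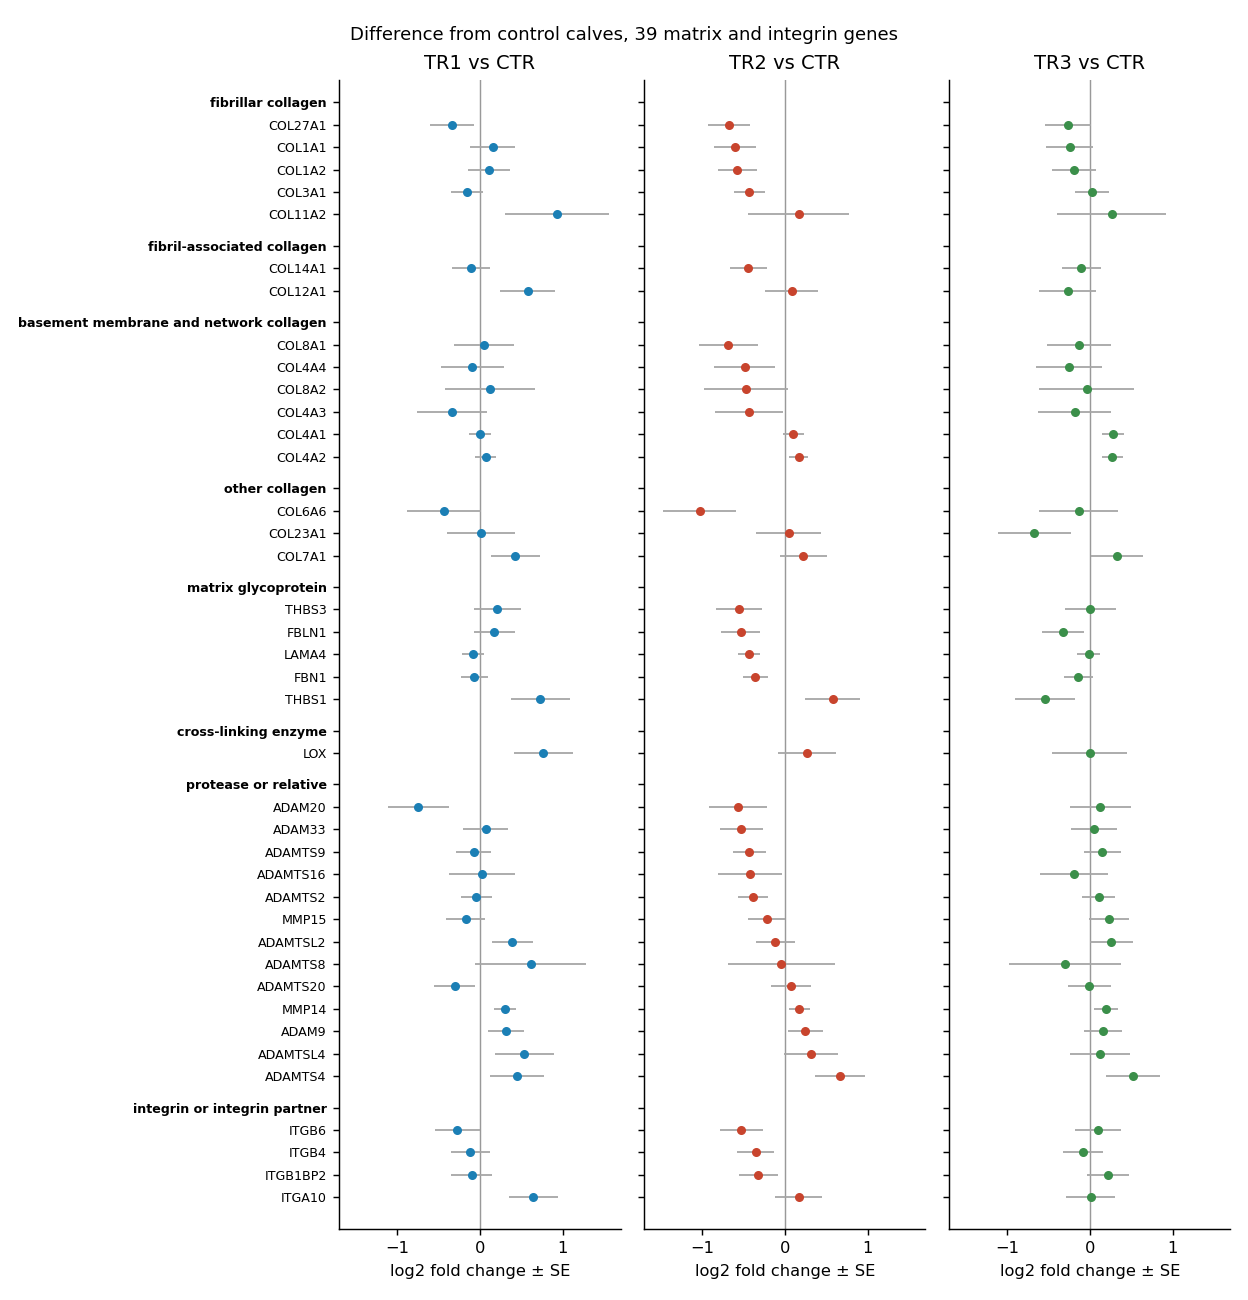
Fitted log2 fold change from CTR with its SE (x axis) for each of the 39 genes (y axis, grouped by role and ordered by the TR2 value) in TR1, TR2 and TR3. In TR2, 4 of 5 fibrillar collagens and 4 of 5 matrix glycoproteins lie left of 0, with medians of -0.57 and -0.43.

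In TR2, 25 of the 39 genes were below 0 with a median of -0.36, against 48.7% of the 12964 genes tested and a median of 0.01 over them. In TR1 16 genes were below 0 (49.6% of all genes) with a median of 0.05, and in TR3 20 genes (52.8% of all genes) with a median of -0.00. Without A2023, A2099 and A2100 the TR2 median was -0.21, with 27 genes below 0, and the values of 27 of the 39 genes moved by over 1.5 times or changed sign. Leaving out any 1 calf changed the sign of 15 of the 39 values in TR1, 6 in TR2 and 14 in TR3. No gene passed an adjusted p of 0.05 by edgeR in any of these comparisons, members or not (0.0% in each), and an unadjusted p under 0.05 was reached by 331 genes in TR1 (2.55%), 1081 in TR2 (8.34%) and 175 in TR3 (1.35%). DESeq2 called 1 gene in TR2 and 0 in TR1 and TR3. In none of the 3 comparisons did any gene separate the calves of the Se group from those of CTR without overlap (0.0%). Since the choice of genes rests on these same contrasts, the shares are a description. The 7 fibroblast markers were all below 0 in TR2, with a median of -0.60, and their summed level ranged from 38.6 to 74.9 CPM in TR2 (median 57.3) against 55.6 to 125 CPM in CTR (median 88.1). The sum was 38.6 CPM in A2100, 40.5 in A2099 and 55.0 in A2023, and 41.5 to 74.9 CPM in the other TR2 calves. Fitted values of these markers without the 3 calves are not given here. The IDs of these markers come from the same supplementary tables, so that their values are a description as well. The part of these markers in the collagen values was not tested.

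Whether the genes vary together from calf to calf was tested after the mean of each treatment group had been removed. Pearson's r of log2 CPM with COL1A1 was computed for all the other genes tested, with two-sided p from 100000 permutations of COL1A1 within groups, adjusted over all of them. Of the 38 other matrix and integrin genes, 8 were called at an adjusted p of 0.05, all with positive r, against 1.64% of all genes (0.933% called with a positive r). COL1A2 had the highest r of all genes, 0.98 (permutation p = 1e-05, the smallest the permutations can give, adjusted p = 0.00763, Spearman's rho 0.97). It was followed among these genes by COL3A1 (r = 0.75, rho 0.78), ADAMTS2 (0.71, 0.72), FBN1 (0.70, 0.69) and COL14A1 (0.68, 0.75), each at an adjusted permutation p of 0.00894 or lower. FBLN1 (r = 0.63, adjusted permutation p = 0.0296), COL6A6 (r = 0.61, adjusted permutation p = 0.0270) and COL8A1 (r = 0.52, adjusted permutation p = 0.0489) passed by r but not by rank, their adjusted permutation p for rho being 0.160, 0.0606 and 0.0556. By rank 5 of the 38 were called, against 0.525% of all genes, with permutation p from 1e-05 to 2e-05. In all, 31 of the 38 had r above 0, against 50.4% of all genes, and their median r was 0.33 against 0.00.

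**Figure D3:**
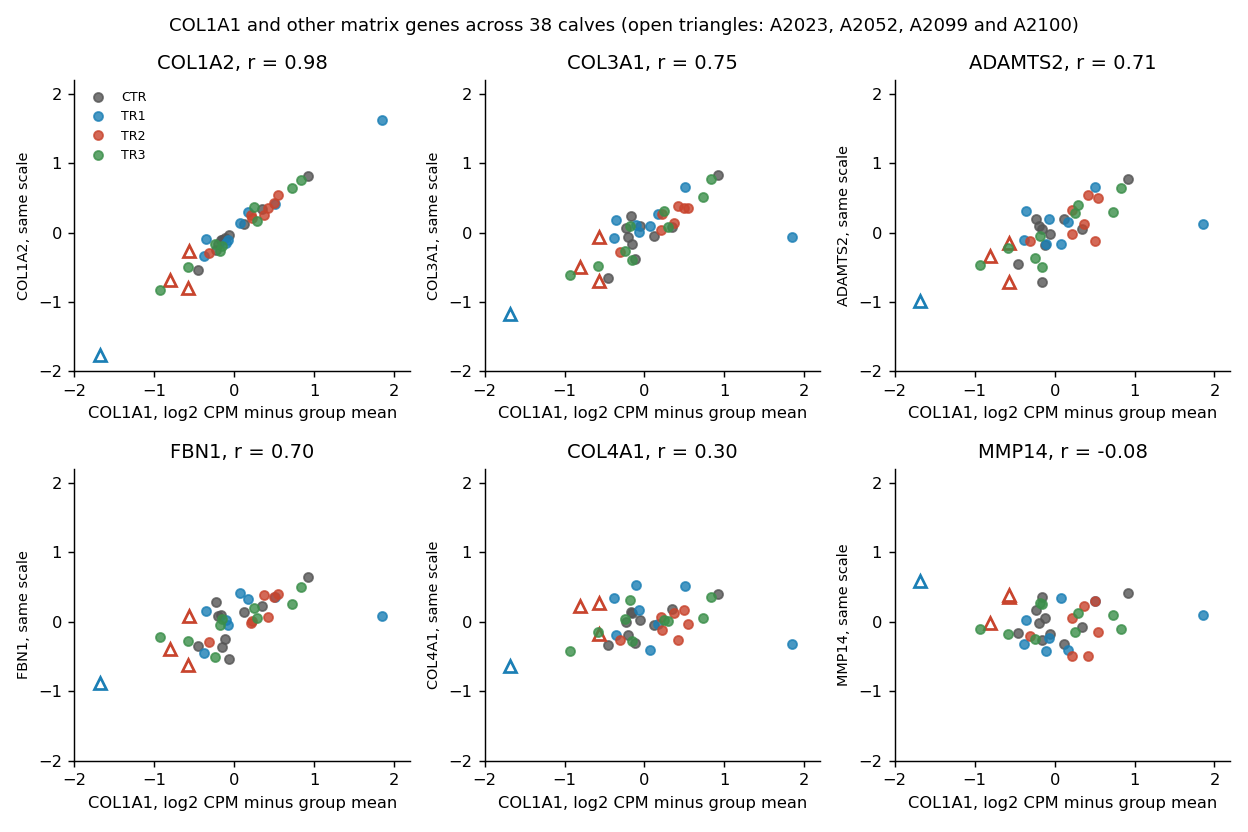
Log2 CPM of 6 genes (y axis) against COL1A1 (x axis), each minus the mean of its treatment group, 1 point per calf and open triangles for A2023, A2052, A2099 and A2100. COL1A2 follows COL1A1 closely (r = 0.98), COL3A1, ADAMTS2 and FBN1 less so (r from 0.70 to 0.75), and COL4A1 (r = 0.30) and MMP14 (r = -0.08) were not called.

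COL1A2, COL3A1, ADAMTS2, FBN1 and COL14A1 were called whichever single calf was left out. Without the 2 calves farthest from the COL1A1 median, A2047 and A2052, r was 0.97 for COL1A2, 0.88 for COL3A1, 0.76 for ADAMTS2, 0.75 for FBN1 and 0.70 for COL14A1, but 0.44 for FBLN1, which was no longer called (adjusted permutation p = 0.199). Again 8 of the 38 genes were called (0.602% of all genes), LAMA4 among them (r = 0.59, adjusted permutation p = 0.0376). Without A2052 alone 5 were called (0.231% of all genes), and without A2047 alone 14 were (8.15% of all genes). Without A2023, A2099 and A2100 there were 4 (0.201% of all genes), COL1A2, COL3A1, FBN1 and FBLN1. Without all 4 calves of high NAMPT only COL1A2 was (r = 0.99, adjusted permutation p = 0.0324). The other r values then were 0.63 for COL3A1, 0.67 for FBLN1, 0.57 for each of ADAMTS2, FBN1 and COL14A1, 0.50 for COL8A1 and 0.37 for COL6A6. A total of 8 genes of the whole table (0.0617%), COL1A2 included, were called in those 34 calves. Within groups, described without a test, r of COL3A1 with COL1A1 was lowest among TR1 calves, at 0.60, and was 0.82 among CTR, 0.89 among TR2 and 0.94 among TR3 calves. In A2047, the calf with the most COL1A1, COL3A1 stood at 265 CPM, below the TR1 median.

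The genes not called included members of every role. Among the fibrillar collagens COL11A2 (r = 0.33) and COL27A1 (r = 0.28) were not called. LAMA4 (r = 0.51, adjusted permutation p = 0.0868), ADAMTSL2 (r = 0.60, adjusted permutation p = 0.0546) and ITGB1BP2 (r = 0.58, adjusted permutation p = 0.0777) were not called, although the last pair had a higher r than COL8A1. The type IV chains COL4A1 and COL4A2 had r of 0.30 and 0.26, LOX 0.19, THBS1 -0.11 and ADAMTSL4 -0.17, none of them called. Without the 4 calves of high NAMPT these values were 0.23, 0.21, 0.34, 0.65 and 0.12, so that THBS1 and ADAMTSL4 changed sign. COL12A1 went from 0.32 to 0.63. None of these genes was called in those 34 calves either. No integrin or integrin partner of 4 was called, and of the 13 proteases and relatives ADAMTS2 was.

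**Figure D4:**
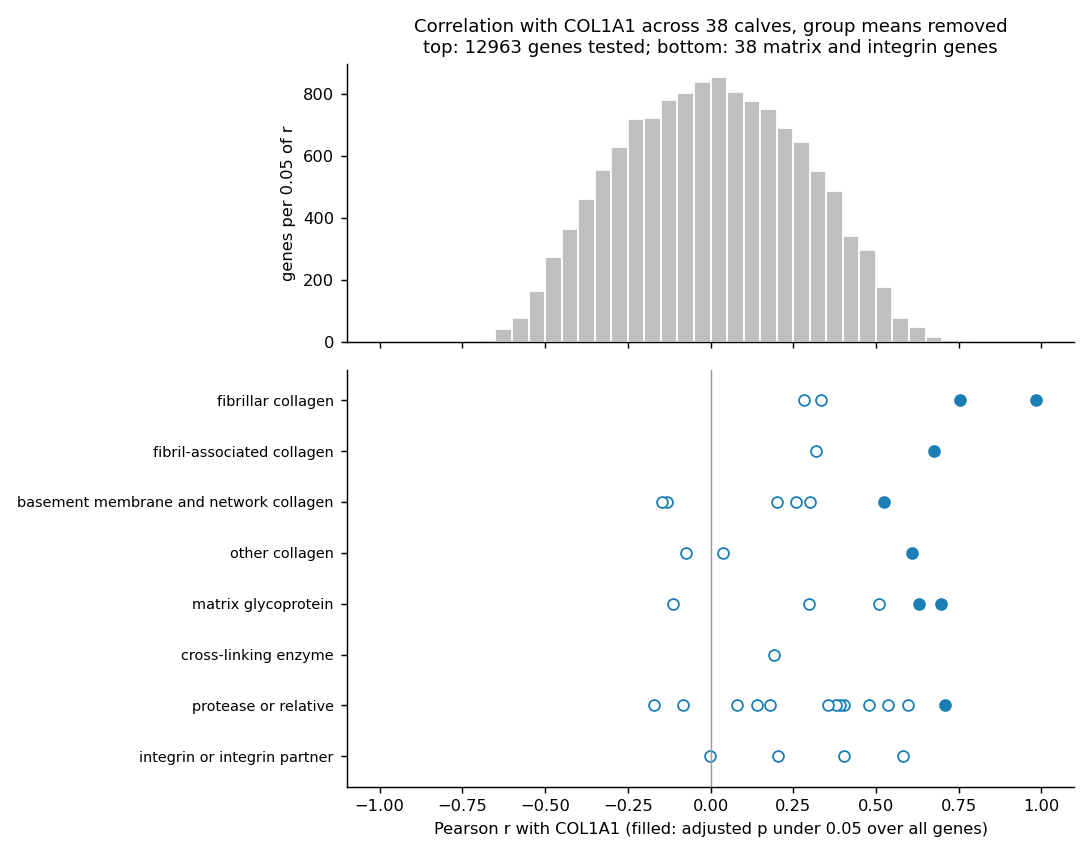
Distribution of Pearson's r with COL1A1 over all genes tested (top, genes per bin) and r of the 38 other matrix and integrin genes by role (bottom, filled where the adjusted p was under 0.05). The filled points lie between 0.52 and 0.98, and 7 of the 38 points lie below 0.

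Neighboring pairs of type IV genes were examined with the same measure, as an addition made after the data were seen. COL4A1 and COL4A2 are adjacent in the RefSeq gene order, as are COL4A3 and COL4A4. COL4A2 had the highest r with COL4A1 of all genes, 0.94 (permutation p = 1e-05, adjusted p = 0.0432, rho 0.92), and 0.92 without the 2 calves farthest from the median. By rank its adjusted permutation p was 0.0648. COL4A4 had the highest r with COL4A3, 0.90 (permutation p = 1e-05, adjusted p = 0.00146, rho 0.88), and 0.87 without the farthest calves, A2023 and A2100. COL4A3 was correlated with 1979 genes at this threshold and COL4A1 with 3, a count that depends on the number of permutations as well. Which strand setting the counts keep is not given in the sources used here, and reads shared by such pairs were not examined.

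The other matrix genes of the same pathway, taken from lists rather than from the symbol rule, were read from the same correlation. Their IDs and those of the cell type markers come from the same supplementary tables, so that they are no independent set. Over all genes, 1.64% were called, and 0.933% with a positive r. Among 8 proteoglycans, 4 were called and all 4 were positive, namely FMOD (r = 0.76), LUM (r = 0.67), OGN (r = 0.61) and BGN (r = 0.59). Of 20 glycoproteins, 6 were called and positive, led by FN1 (r = 0.66), FNDC1 (r = 0.63), MFAP5 (r = 0.63) and POSTN (r = 0.62). Of 10 genes of collagen processing, PCOLCE, which speeds removal of the carboxy-terminal propeptide (r = 0.82), and FKBP10, a collagen chaperone (r = 0.68), were called. None of 12 matrix receptors and adhesion genes was called, with a median r of -0.05. Of the 7 fibroblast markers 4 were called (PDGFRL, LUM, MFAP5 and PI16), and all 7 had r above 0 with a median of 0.61. All 13 muscle fiber markers also had r above 0, with a median of 0.35, as did 8 of 9 immune markers, with a median of 0.26. Without the 4 calves of high NAMPT these medians were 0.53 for fibroblast, 0.05 for muscle fiber and 0.04 for immune markers. None of the markers of muscle fibers (0 of 13), endothelium (0 of 3), satellite cells and myoblasts (0 of 5), immune cells (0 of 9), adipocytes (0 of 3), Schwann cells (0 of 5) or blood (0 of 3) was called, and 1 of 5 for smooth muscle and pericytes was (NOTCH3). LUM, MFAP5 and DPT stand in a matrix list and in the fibroblast list alike, DPT not being called (r = 0.56, adjusted permutation p = 0.0879). Counted once each, 15 list genes were called by r and 9 of these also by rank, FMOD, OGN, TGFBI, FNDC1, FREM2 and NOTCH3 being the exceptions. Without the 4 calves r of all 15 was still above 0, from 0.19 to 0.71, but only BGN and PCOLCE were called. NAMPT itself was not called (r = -0.50, adjusted permutation p = 0.116).

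Sex was tested in the same edgeR fit as female minus male (14 females, 24 males). No gene of the 39 was called, against 0.0309% of all genes, which were 4 of 12964. At an unadjusted p under 0.05 there were 5 of 39 genes (12.8%) and 6.61% of all genes. COL1A1 had a median of 120 CPM in females (39.4 to 457) and 109 CPM in males (47.3 to 244), with a log2 difference of 0.46 (SE 0.20, edgeR p = 0.0287, adjusted p = 0.702), and 10 of 14 females lay above the male median. COL1A2 was at 0.39 (SE 0.19) and COL12A1 at 0.50 (SE 0.24). THBS1 had the smallest p, with a median of 6.19 CPM in females (3.08 to 65.1) and 6.09 CPM in males (4.29 to 21.6) and a log2 difference of 0.63 (SE 0.25, edgeR p = 0.0183, adjusted p = 0.646), although 7 of 14 females lay above the male median. ADAMTSL4 was the one lower in females, with medians of 14.2 CPM (5.30 to 52.5) and 19.5 CPM (9.86 to 61.3) and a log2 difference of -0.54 (SE 0.25, edgeR p = 0.0396, adjusted p = 0.726).

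The only females of TR1 were A2047 and A2052, and the sex values turned on them. Without A2047 the difference was 0.10 for COL1A1, 0.09 for COL1A2 and 0.10 for COL12A1, and without A2052 it was 0.60 for COL1A1 and 0.22 for THBS1. Without both, COL1A1 was at 0.32, COL12A1 at 0.03, THBS1 at -0.16 and ADAMTSL4 at -0.96, and 3 of the 39 genes had an unadjusted p under 0.05 against 1589 of 12964. In each of these fits 0 of the 39 genes were called.

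**Figure D5:**
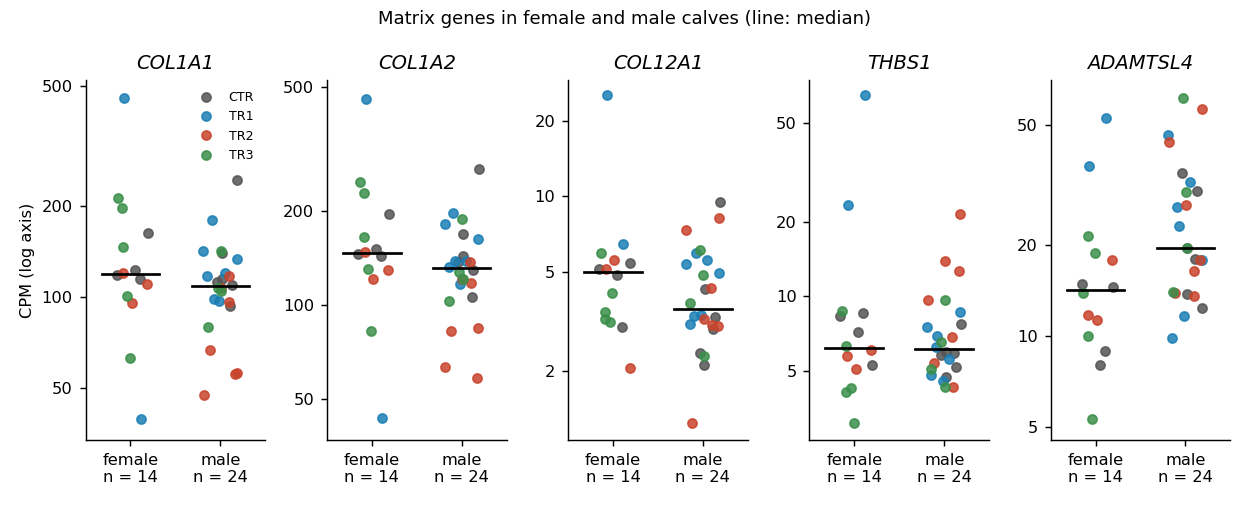
CPM (log axis) of the 5 genes with an unadjusted p under 0.05 for sex in 14 female and 24 male calves, colored by treatment group, with a line at the median. In THBS1 the medians are 6.19 and 6.09 CPM and a TR1 female lies at 65.1 CPM.

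For dam age, 0 of the 39 genes and 0.0% of all genes were called by edgeR. At an unadjusted p under 0.05 there was 1 of 39 genes against 3.36% of all genes, and DESeq2 also called none, with 1 member at an unadjusted p under 0.05. That gene was THBS1, at -0.30 on the log2 scale per year of dam age (SE 0.10, edgeR p = 0.00477, adjusted p = 0.993). Without A2047 and A2052, both calves of dams of 5 years, it was -0.07. MMP14 followed with -0.07 per year (SE 0.04, edgeR p = 0.0782, adjusted p = 0.993) and ADAMTSL4 with -0.18 per year (SE 0.10, edgeR p = 0.0826, adjusted p = 0.993).

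The 3 TR2 calves of high NAMPT lay below all 7 other TR2 calves in 7 of the 39 genes, COL1A1, ITGB6, ITGB1BP2, ADAMTS9, ADAMTS2, ADAM33 and COL6A6, and above all of them in 0. Over all genes tested they lay below in 5.99% and above in 7.37%. The 39 genes were chosen in part by TR2 differences, which these calves shift, so that the comparison of shares is not free of that choice. ITGB1BP2, for example, was at 11.1 to 13.3 CPM in these 3 calves and at 18.6 to 40.3 CPM in the others. COL4A1 was at 276 to 378 CPM in them and at 260 to 351 CPM in the others, so that the ranges overlapped. These calves were set apart by their own expression and not by a label, and no test was made between them and the rest.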

How the data were processed

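RNA-Seq of LD muscle from 38 calves was used. The authors removed adaptors and low-quality reads, mapped the rest to ARS-UCD1.2 with STAR 2.7.3a and counted reads per Ensembl gene; the deposited values are raw counts, without normalization, and no column was left unused. No sequencing batch is given in the labels, and the kept strand column is not given in the sources used here. The symbol tables hold fold changes of the authors, which were not used. Of 27607 genes, 21038 had a count, and edgeR's filterByExpr kept 12964.

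The quasi-likelihood test of edgeR 4.0.16 (TMM, dam age, sex and group, Benjamini-Hochberg over all genes, 0.05) ran in R 4.3.3, with DESeq2 1.42.0 as an alternative. SEs are the log2 difference divided by the root of F. Correlations used log2 CPM (prior count 2) in Python 3.11.15 (numpy 2.4.6, scipy 1.17.1, pandas 2.3.3, matplotlib 3.10.9). The genes, lists and tests were chosen with earlier results of these data known.

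All 39 genes are named with their level. Values by group are given for COL1A1, COL1A2, COL3A1, COL4A1, COL4A2, LOX and LAMA4, for the 2 highest and 2 lowest differences in each Se group, and for the 3 smallest p for sex and dam age. The sets left out as alternatives, A2047 with A2052 and the 4 calves of high NAMPT, and the run with 1000000 permutations were chosen after seeing the data.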

Additional observations from a re-analysis of the deposited data

Results flagged for a closer look

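By Dixon's test, which sets the gap of the highest or lowest calf to its neighbor against the range of its group, 13 of 156 cases (39 genes in 4 groups) were positive, in 12 genes and 5 calves. By its construction chance flags about 1 in 20 groups, but these cases share calves and are not independent. A2052 (TR1) accounted for 9 of them, as the lowest of 9 calves with 123.2 CPM in COL3A1 (group median 297), 9.216 in ITGB6, 4.529 in ADAMTS20, 6.004 in ITGB1BP2, 3.371 in MMP15, 4.529 in ADAMTS2, 1.001 in ADAMTSL2, 0.1053 in COL6A6 and 0.05267 in ADAMTS16. A2099 (TR2) was far below its group in ITGB6 with 8.291 CPM (median 44.6), and A2023 (TR2) in COL8A1 with 0.158 CPM. A2065 (TR3) was far below in COL8A2 with 1.884 CPM. A2047 (TR1) was the one far above its group, with 25.53 CPM of COL12A1. The flagged values of COL6A6, ADAMTS16 and COL8A1 lay far below 1 CPM, so that they rest on very few reads.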

How the results depend on the processing

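No paired analysis was possible because the replicate numbers were given in accession order and pair no calves. The study assigned cows to groups in randomized complete blocks. The labels used here give no block, so that no fit could include it. Sex called 4 genes, 11 without a filter on low counts, 8 without A2023, A2099 and A2100 and 12 without A2047 and A2052, and 4 to 8 with 1 calf left out. Dam age called 0 genes, 3 without the filter, 1 with sex left out, and 0 to 1 with 1 calf left out. TR2 vs. CTR called 1 gene by DESeq2, TR3 vs. CTR 2 without the filter, and leaving out 1 calf gave 0 to 1 in TR1 and in TR2. In none of these fits was a matrix or integrin gene called for sex or dam age. Of the 38 matrix and integrin genes other than COL1A1, 15 were called with COL1A1 without removal of group means (10.5% of all genes), 4 without A2023, A2099 and A2100 (0.201%), 1 without these and A2052 (0.0617%), with 100000 permutations or with 1000000, and 5 to 14 with 1 calf left out. With library size in place of TMM 6 were called (0.494%), COL6A6 and COL8A1 no longer among them (adjusted permutation p = 0.102 and 0.0816). Variance-stabilized values gave 7 (1.21%), and residuals after group, sex and dam age gave 12 (5.18%). The log2 difference of THBS1 by sex turned to -0.16 without A2047 and A2052. With 1 calf left out, the TR2 median of the 39 genes stayed between -0.41 and -0.30, that of TR1 lay between -0.06 and 0.13 and that of TR3 between -0.08 and 0.04. Genes near 1 CPM rest on about 13 to 17 reads per calf on average, and on far fewer in single calves. The cause of these shifts was not tested.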
